A study of Mus musculus with 4 samples.

Results

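Blood vessels use a small set of genes to hold leukocytes and to control clotting. Of the 31054 features of each count table, 10 such genes were followed here through the endothelial cells of the aged mouse lung: Selp, Sele, Vcam1, Icam1 and Icam2, which encode adhesion molecules, and Vwf, Thbd, Procr, Plat and Tfpi, which encode proteins of clotting and clot removal. They were chosen by symbol, as the rows so named in each table, and each symbol matched 1 row. The libraries came from male C57BL/6 mice that were 19 months old when dosing began and were then given BPTES or DMSO for 1 month, with 2 libraries per group and no young or undosed mice. BPTES is a small molecule that blocks glutaminase (GLS1), the enzyme that turns glutamine into glutamate, and DMSO is its solvent. Lungs were digested with Liberase for 1 hour, and 20000 CD45-negative and 9000 CD45-positive sorted cells of the same tissue were mixed for each library, so the balance of leukocytes and other cells was set by the sort. The labels do not say how many mice gave each library, so the tests measure the spread between libraries.

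Endothelial adhesion molecules act in sequence. The selectins P-selectin (Selp) and E-selectin (Sele) catch passing leukocytes, and the immunoglobulin family members Vcam1, Icam1 and Icam2 then bind leukocyte integrins for firm arrest. P-selectin and von Willebrand factor (Vwf), which tethers platelets to the vessel wall, are stored together in the Weibel-Palade bodies of endothelial cells, whereas E-selectin has to be made anew, typically after NF-kB activation. On the side that keeps blood fluid, thrombomodulin (Thbd) turns thrombin into an activator of protein C, the endothelial protein C receptor (Procr) presents protein C to that complex, tissue factor pathway inhibitor (Tfpi) blocks the start of coagulation, and tissue plasminogen activator (Plat) sets off fibrinolysis. The lung capillary bed has general capillary cells and aerocytes, the thin, large cells of the gas exchange surface.

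After filtering, between 14407 and 18860 cells per library were kept, 63895 in all, with median depths between 13958 and 15749 UMIs per cell. The 4 libraries held between 260346570 and 342107092 UMIs, and each pair of libraries had between 75 and 121 cell barcodes in common. Clustering, in which none of the 10 genes was used as a variable gene or as a marker, gave 24526 endothelial cells, of which 20673 were in named clusters: 2134 arterial-like, 13121 general capillary-like, 1456 aerocyte-like, 2575 venous-like and 1387 lymphatic-like cells. The arterial-like class depended on the clustering: in 5 other partitions (other resolutions, seeds or variable genes) it held between 1214 and 2842 cells and the general capillary-like class between 9967 and 14110, with adjusted Rand indices between 0.528 and 0.591 against the partition used. All listed markers of each endothelial class were detected in that class in every library, and "-like" marks names drawn from RNA with no other evidence. Summed levels of 10 platelet markers were low throughout these classes, between 1.89 and 23.5 CPM. Levels are in CPM, the UMIs of a gene scaled to the summed UMIs of a class in a library. The other 3853 endothelial cells (15.7%) were in clusters that could not be named and are not in these classes. Differences between classes are described and carry no test, since the classes were drawn from the same cells.

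Sele (ENSMUSG00000026582, chr1:164048234-164057677, GRCm38, plus strand) and Selp (ENSMUSG00000026580, chr1:164115264-164150026, plus strand) lie in the same orientation on chromosome 1. Vcam1 is on chromosome 3 (chr3:116109949-116129688, minus strand), Icam1 on chromosome 9 (chr9:21015985-21028817, plus strand) and Icam2 on chromosome 11 (chr11:106377656-106388075, minus strand). Vwf is at chr6:125546774-125686679 on the plus strand and Plat at chr8:22757727-22782844 on the plus strand. The other 3 clotting genes are on chromosome 2: Thbd (chr2:148404466-148408188, minus strand), Procr (chr2:155751117-155755471, plus strand) and Tfpi (chr2:84432855-84476775, minus strand). All 10 are annotated as protein coding.

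The promoters of Sele, Selp and Icam1 are shown because Sele and Selp had their highest mean CPM in venous-like cells and Icam1, among endothelial classes, in aerocyte-like cells. They are RefSeq sequences of GRCm38.p6, on the plus strand, from 250 bases before to 50 bases after the start in that table, which for Icam1 lies upstream of the gene start given above; 5 of the 10 genes had such an entry. Capitals mark matches to the NF-kB-like motif GGGNNNNNCC on either strand.
Sele (chr1:164047984-164048283): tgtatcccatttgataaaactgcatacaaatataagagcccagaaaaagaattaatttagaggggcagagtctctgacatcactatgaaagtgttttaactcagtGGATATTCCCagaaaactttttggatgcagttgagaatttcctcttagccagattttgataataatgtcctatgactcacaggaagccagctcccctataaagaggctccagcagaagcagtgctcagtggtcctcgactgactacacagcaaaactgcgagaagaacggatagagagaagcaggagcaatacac
Selp (chr1:164115014-164115313): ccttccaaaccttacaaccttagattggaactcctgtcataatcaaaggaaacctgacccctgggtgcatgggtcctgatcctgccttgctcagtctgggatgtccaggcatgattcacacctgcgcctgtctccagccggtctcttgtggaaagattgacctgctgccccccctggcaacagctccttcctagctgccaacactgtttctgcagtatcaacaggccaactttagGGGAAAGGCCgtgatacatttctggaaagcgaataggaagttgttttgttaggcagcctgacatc
Icam1 (chr9:21015690-21015989): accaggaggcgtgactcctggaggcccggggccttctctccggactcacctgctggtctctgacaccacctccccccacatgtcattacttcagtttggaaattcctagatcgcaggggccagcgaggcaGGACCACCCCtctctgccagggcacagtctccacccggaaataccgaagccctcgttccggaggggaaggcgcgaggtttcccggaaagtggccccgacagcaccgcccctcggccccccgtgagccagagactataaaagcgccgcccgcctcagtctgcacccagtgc
Each of the 3 sequences held 1 match to GGGNNNNNCC. Procr, whose sequence is not shown, held 3 matches to this motif, and the entries of Tfpi, also not shown, held 0 and 3. The motif is short and loose: 50.8% of the 32851 promoters of this length held it on at least 1 strand. The match of Sele was GGATATTCCC, a match on the minus strand written here as in the sequence, starting 145 bases before the gene's start, and that of Selp was GGGAAAGGCC, starting 15 bases before it. Sele and Selp also each held 1 match to the AP-1 motif TGANTCA, which was found in 7.81% of promoters, and Sele and Icam1 each held 1 match to TATAAA, found in 13.6%. These matches describe letters and say nothing of binding.

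Selp and Sele had their highest mean CPM in venous-like, then arterial-like cells. Selp averaged 665 ± 152 CPM in venous-like cells (SD, n = 4 libraries), 42.9 ± 29.1 CPM in arterial-like, 23.2 ± 7.46 CPM in lymphatic-like, 7.83 ± 4.63 CPM in general capillary-like and 1.22 ± 1.66 CPM in aerocyte-like cells. The venous-like level was 15.5 times the arterial-like level and their ranges over libraries did not overlap, whereas the arterial-like and lymphatic-like ranges did. By the share of cells with a Selp UMI, lymphatic-like cells (6.98%) were above arterial-like cells (5.48%). Sele averaged 45.8 ± 17.7 CPM in venous-like and 31.6 ± 12.4 CPM in arterial-like cells, with overlapping ranges, and by the share of cells with a Sele UMI the order was the other way (3.45% and 3.88%). It averaged 5.44 ± 3.57 CPM in general capillary-like cells, and in aerocyte-like and lymphatic-like cells it was near 0 (0.314 and 0.300 CPM). Of all UMIs in kept cells, venous-like cells held 82.9% of those of Selp and 40.9% of those of Sele; arterial-like cells held 3.95% and 20.8%. General capillary-like cells held a larger share than arterial-like cells of both, 23.5% in the case of Sele.

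Vcam1 had the same order in blood endothelium, while Icam1 and Icam2 were, as class sums within endothelium, highest in aerocyte-like cells. Vcam1 averaged 377 ± 90.0 CPM in venous-like, 94.5 ± 28.7 CPM in arterial-like, 12.2 ± 3.18 CPM in general capillary-like, 2.92 ± 0.709 CPM in aerocyte-like and 2.55 ± 1.03 CPM in lymphatic-like cells, and only the last 2 overlapped. Most Vcam1 UMIs lay outside these classes: alveolar and adventitial fibroblast-like cells averaged 323 ± 18.5 and 315 ± 62.9 CPM. Icam1 averaged 605 ± 71.8 CPM in aerocyte-like and 425 ± 40.4 CPM in venous-like cells, against 163, 161 and 102 CPM in general capillary-like, arterial-like and lymphatic-like cells. Across all named classes Icam1 was highest in AT1-like cells, the flat epithelium of the alveolus, at 1073 ± 161 CPM. Icam2 averaged 1590.4 ± 16.6 CPM in aerocyte-like cells, 3.06 times the next class, and 520.0, 514, 421 and 122 CPM in arterial-like, general capillary-like, venous-like and lymphatic-like cells. As a class, aerocyte-like cells thus combined the highest Icam2 and the highest endothelial Icam1 with Selp, Sele and Vcam1 at or below 2.92 CPM on average.

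Vwf was highest in venous-like and arterial-like cells and, down the order of classes, its largest step was from general capillary-like to aerocyte-like cells (33.0-fold). It averaged 2362 ± 204 CPM in venous-like, 990 ± 107 CPM in arterial-like and 240.1 ± 91.9 CPM in general capillary-like cells, none of which overlapped, and 7.26 ± 2.87 CPM in aerocyte-like and 3.62 ± 1.99 CPM in lymphatic-like cells. A platelet and megakaryocyte-like cluster of 104 cells held 722 ± 107 CPM of Vwf. The share of cells with a Vwf UMI had the same order, with 98.7% of venous-like, 86.9% of arterial-like and 63.2% of general capillary-like cells, against 7.96% of aerocyte-like and 3.90% of lymphatic-like cells.

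The anticoagulant and fibrinolytic genes each had an order of their own. Thbd was high throughout blood endothelium, at 1051.5 ± 19.8 CPM in aerocyte-like, 1048.5 ± 49.0 CPM in venous-like, 775 ± 68.8 CPM in general capillary-like and 596 ± 55.5 CPM in arterial-like cells, and the first 2 overlapped. Lymphatic-like cells had 117 ± 24.7 CPM of Thbd. Procr was low and was highest, within endothelium, in lymphatic-like cells (25.1 ± 1.71 CPM), then in venous-like cells (9.27 ± 1.81 CPM), with 2.80, 1.26 and 0.166 CPM in arterial-like, general capillary-like and aerocyte-like cells. Ciliated-like cells had more Procr than any endothelial class, 42.4 ± 4.98 CPM. Tfpi was even, between 51.4 and 58.1 CPM in 4 classes whose ranges overlapped from each to the next, and lower in arterial-like cells (34.0 ± 5.36 CPM). Across all named classes its mean was highest in alveolar fibroblast-like cells (75.6 ± 5.31 CPM), with a range that overlapped the next class. These held 33.9% of the Tfpi UMIs in kept cells. Plat had its highest mean in arterial-like cells. It averaged 303 ± 34.9 CPM in arterial-like, 93.8 ± 10.6 CPM in general capillary-like and 23.3 ± 6.08 CPM in venous-like cells, whose ranges did not overlap. Lymphatic-like and aerocyte-like cells had 14.2 and 13.5 CPM. Adventitial and alveolar fibroblast-like cells (205 and 191 CPM) and pericyte-like cells (173 CPM) also held Plat. Of the Plat UMIs in kept cells, arterial-like cells held 7.79%, general capillary-like cells 14.9% and alveolar fibroblast-like cells 30.9%.

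**Figure D1:**
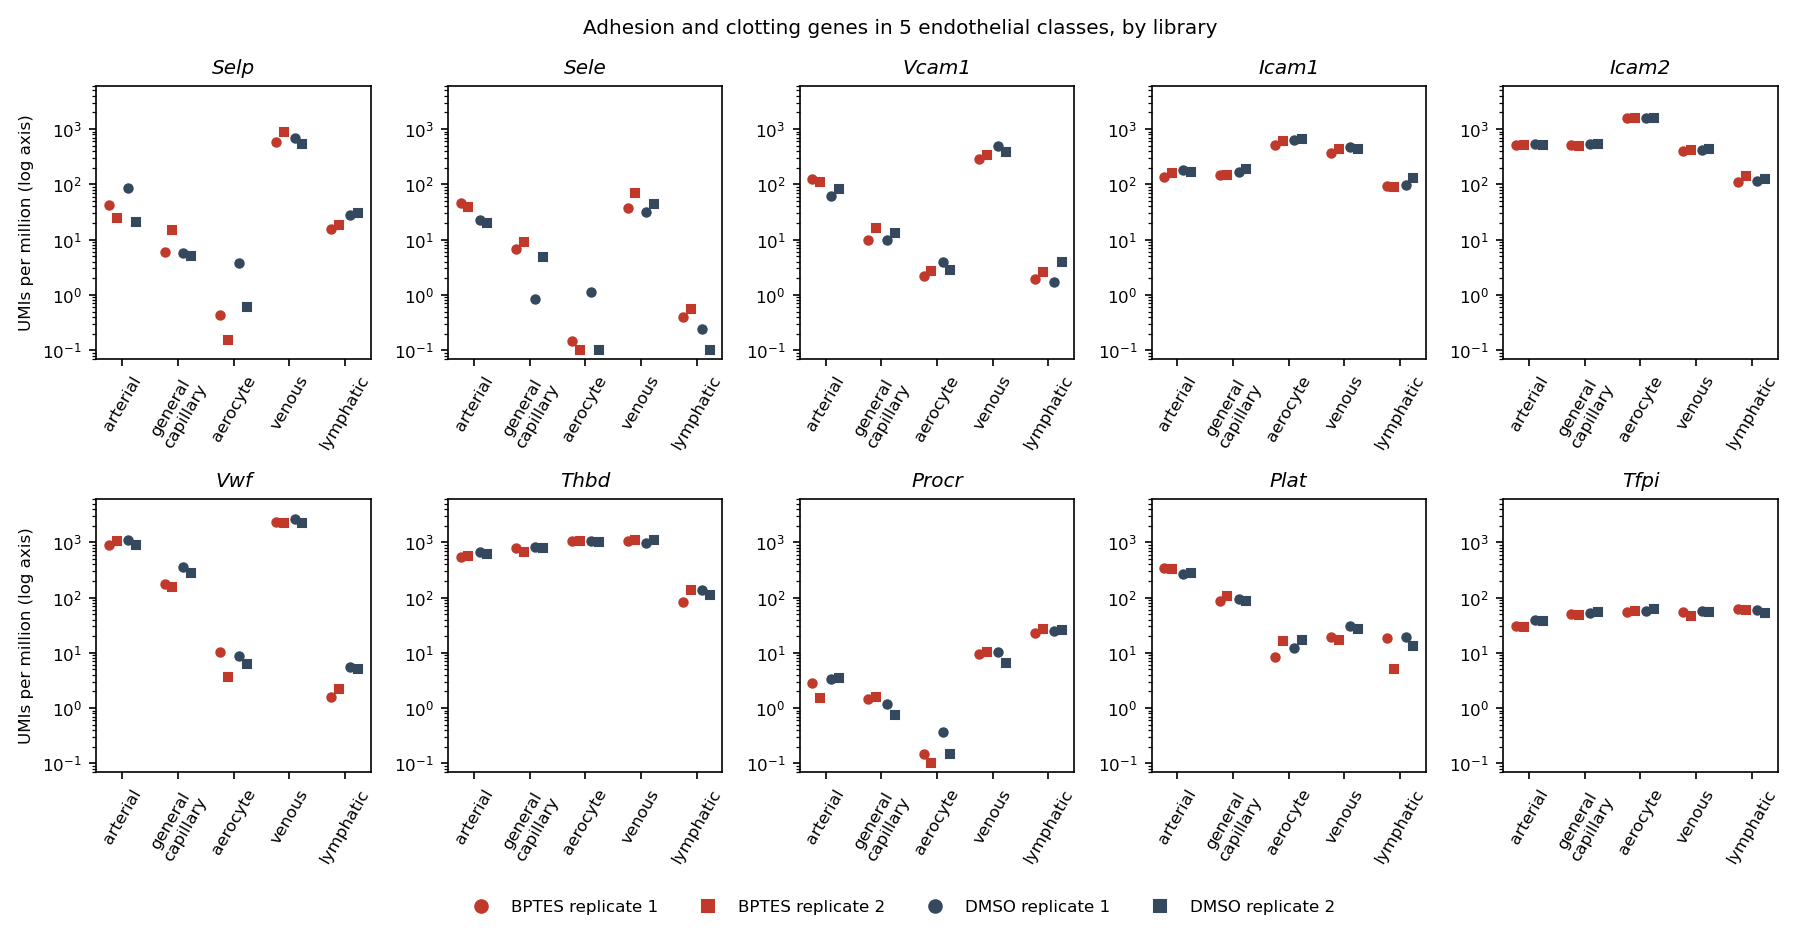
Level of each of the 10 genes in 5 endothelial classes, in CPM on a log axis, with 1 point per library (values below 0.1, 0 included, are drawn at 0.1). Selp, Sele, Vcam1 and Vwf have their highest mean in venous-like cells (for Sele with a range that overlaps the arterial-like one), Icam2 in aerocyte-like cells, Plat in arterial-like cells and Procr in lymphatic-like cells.

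Within the arterial-like class, most UMIs of Sele, Selp and Vcam1 were in a small cluster. Arterial-like cells fell into a large cluster of 1858 cells (cluster 5) and a small one of 276 cells (cluster 12), led by Olfm2, Adgrg6 and Cdh13. The large cluster was less clearly arterial: its mean marker z-score was 0.877 for arterial and 0.696 for general capillary markers. For cluster 12 these scores were 2.15 for arterial markers and -0.288 for the next class, venous. The mean Sele level was 215 ± 66.7 CPM in cluster 12 and 2.10 ± 1.16 CPM in cluster 5. Selp was at 317 ± 247 CPM against 2.08 ± 1.93 CPM, Vcam1 at 581 ± 117 CPM against 17.1 ± 4.30 CPM, and Vwf at 2751 ± 237 CPM against 715 ± 130.5 CPM. Plat was 2.74 times as high in cluster 12 (671 ± 132 against 245 ± 17.6 CPM). Thbd and Tfpi ran the other way: Thbd was at 166 ± 14.4 CPM in cluster 12 and 662 ± 54.6 CPM in cluster 5, and Tfpi at 17.8 ± 6.30 against 36.3 ± 6.19 CPM. Icam2 did not separate the clusters (524 against 519 CPM). Cluster 12 was thus higher in both selectins, Vcam1, Vwf and Plat and lower in Thbd and Tfpi, in all 4 libraries.

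In the venous-like class a small cluster had the highest levels of these genes, but of Sele, Selp and Vcam1 only Sele had most of its venous-like UMIs there in every library. This cluster of 209 cells (cluster 14) had 3064 ± 631 CPM of Selp, 412 ± 225 CPM of Sele, 1329 ± 295 CPM of Vcam1 and 52.1 ± 25.2 CPM of Procr, against 403 ± 161, 10.2 ± 8.89, 270.3 ± 62.2 and 4.98 ± 1.24 CPM in the large cluster of 2366 cells (cluster 2). Cluster 14 held between 70.2% and 94.4% of the venous-like Sele UMIs per library, between 33.1% and 62.5% of those of Selp and between 25.2% and 44.0% of those of Vcam1. Vwf was 1.54 times as high in cluster 14 and Thbd was lower there (631 ± 60.8 against 1095 ± 34.4 CPM), but Tfpi was slightly higher (60.8 against 52.4 CPM). Plat did not follow the arterial pattern, at 16.9 ± 14.2 and 23.9 ± 5.17 CPM. Icam1 in cluster 14 was at 751 ± 187 CPM, above the aerocyte-like mean but with an overlapping range, and the ranges of Sele in clusters 14 and 12 overlapped as well. Although none of the 10 genes was used to form clusters, Selp, Vcam1 and Sele are among the 10 leading genes of cluster 14, so its levels of them describe the cluster.

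**Figure D2:**
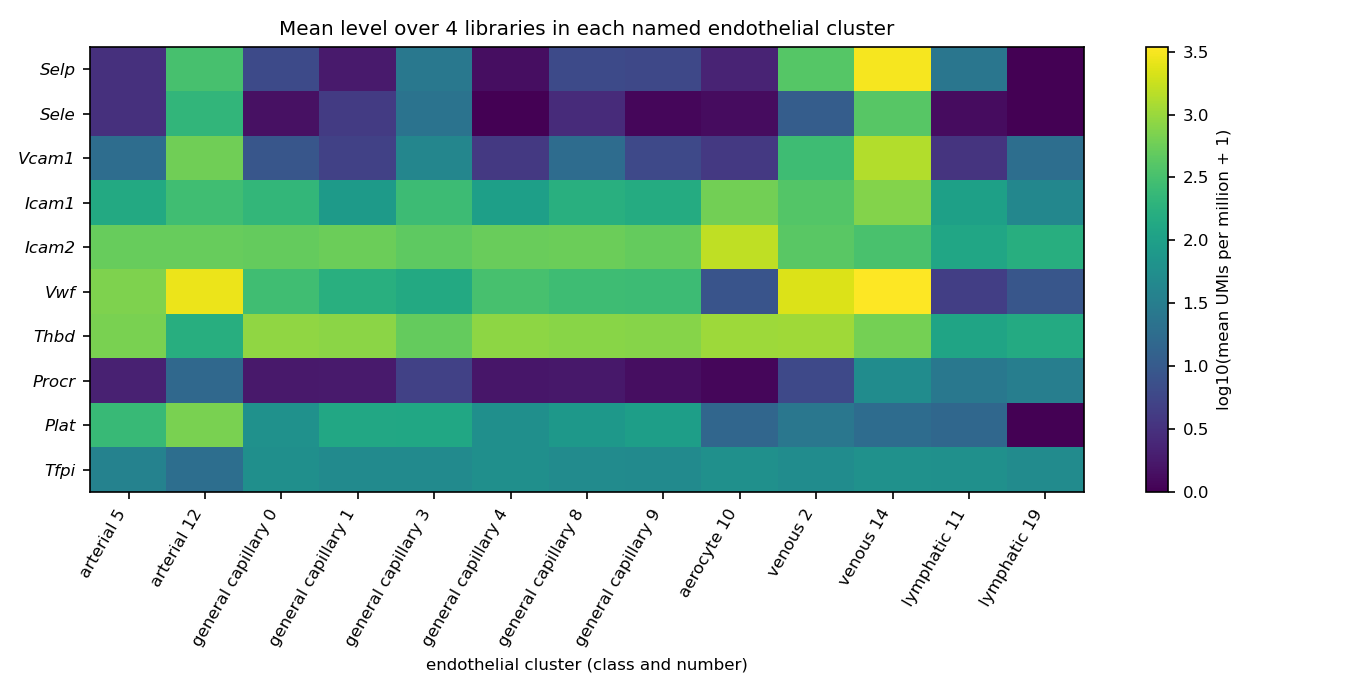
Mean level over the 4 libraries in each named endothelial cluster, as log10 of CPM plus 1, with clusters labelled by class and number. Sele, Selp and Vcam1 have their highest mean in venous-like cluster 14 (for Sele with a range that overlaps cluster 12) and higher in arterial-like cluster 12 than in cluster 5; the large venous-like cluster 2 has a mean Selp level (403 CPM) above that of cluster 12 (317 CPM). Thbd is lower in clusters 12 and 14 than in the larger cluster of the same class.

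The same cells carried several of these genes. In arterial-like cells with a Sele UMI (26, 22, 10 and 23 cells in BPTES replicates 1 and 2 and DMSO replicates 1 and 2), a Vcam1 UMI was found in 88.5%, 86.4%, 70.0% and 78.3%, against 17.3%, 19.0%, 13.7% and 16.2% of the other arterial-like cells. Selp was found in 50.0%, 36.4%, 70.0% and 47.8% of them, against 3.51%, 3.69%, 3.37% and 4.51% of the others. A Vwf UMI was found in 100% of them in each library, against 84.7%, 84.7%, 89.9% and 85.9% of the others. Thbd was found in fewer of them than of the others in each library, for example in 73.1% against 91.8% in BPTES replicate 1. Within cluster 12 alone, Selp was still found in more of the Sele-positive cells (56.5%, 40%, 85.7% and 55.6%, against 26.3%, 19.5%, 34.9% and 38.8% of the others), whereas the order for Thbd was not the same in all libraries (69.6%, 65.0%, 85.7% and 61.1%, against 68.4%, 70.7%, 69.8% and 67.2%). The gap for Vcam1 was narrower in cluster 12 (91.3%, 90%, 85.7% and 83.3%, against 57.9%, 80.5%, 69.8% and 74.6%), and Vwf was found there in 100% of both. Over all arterial-like cells, median depth was between 13414 and 17752.5 UMIs in Sele-positive cells and between 12459 and 13835 in the others. Within cluster 12 it was between 12459.5 and 18614 UMIs against 11497 and 14101, with the widest gap in BPTES replicate 1 (18614 against 11497). Its part in these shares was not tested.

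Sele in arterial-like cells was the first comparison of BPTES with DMSO. Sele was at 45.2 and 38.9 CPM in BPTES replicates 1 and 2 and at 22.8 and 19.6 CPM in DMSO replicates 1 and 2, from 319, 234, 143 and 184 UMIs. Both BPTES libraries were above both DMSO libraries. The fitted log2 fold change was 1.04 ± 0.132 (SE), 2.06-fold, with an adjusted p of 0.0587 by edgeR's quasi-likelihood test with Benjamini-Hochberg adjustment, so the difference did not pass the threshold of 0.05. None of the 10 genes was called in arterial-like cells, where 0% of 12014 genes tested were called and 14.4% had an unadjusted p under 0.05. Over 16 alternative settings the log2 fold change stayed between 0.75 and 1.41. Sele was called under DESeq2 (adjusted p = 0.00192), where 0.746% of all genes were called. It was also called without a filter on low counts (3.11% of genes called), with the replicate number as a block (4.86%) and at clustering resolution 0.5. Leaving out 1 library, which leaves 1 in its group, gave log2 fold changes between 0.93 and 1.14. In the 5 other partitions it was between 0.75 and 1.02.

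The Sele UMIs of arterial-like cells came from few cells. Cluster 12 held 98.1%, 94.9%, 94.4% and 83.7% of the arterial-like Sele UMIs in BPTES replicates 1 and 2 and DMSO replicates 1 and 2. In this cluster Sele was at 275 and 265 CPM in BPTES and 183 and 137 CPM in DMSO (log2 fold change 0.79 ± 0.185, adjusted p = 0.140 by edgeR when the cluster was fitted alone, a fit chosen after seeing the data). In cluster 5 it was at 1.01 and 2.32 CPM against 1.44 and 3.63 CPM, which overlap. Cluster 12 made up 15.7% and 14.3% of arterial-like cells in BPTES and 10.3% and 11.97% in DMSO, a difference with an exact permutation p of 0.3333, the smallest that 2 libraries against 2 allow. The 2 richest cells of each library held 43.9%, 37.2%, 69.9% and 39.7% of its arterial-like Sele UMIs. Without these cells the log2 fold change was 1.41 and the adjusted p 0.0903.

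Counted by cells, 5.09% (95% exact interval 3.35 to 7.37) and 5.14% of arterial-like cells had a Sele UMI in BPTES and 2.06% (0.993 to 3.76) and 3.24% in DMSO. The shares did not overlap between groups (two-sided exact permutation p = 0.3333, adjusted p = 0.877 over 50 such tests). Thinned to 3000 UMIs per cell, the shares averaged 3.39% and 1.60%. For comparison, AT2-like cells, the secretory epithelium, had no Sele UMI in any library (exact upper bounds of the share, for counting error only, between 0.927% and 3.18%), and 0.580% to 1.42% of T-like cells had one. Neutrophil-like cells had Sele UMIs in 3.93% and 5.74% of cells in BPTES and 2.25% and 2.81% in DMSO, at levels of 3.95, 5.25, 2.00 and 2.32 CPM. Median depths were between 12474 and 13835 UMIs in arterial-like and between 9119 and 10109 UMIs in neutrophil-like cells. Neutrophil-like shares were thus near the arterial-like ones and differed between the groups in the same direction (log2 fold change 1.02 ± 0.312, adjusted p = 0.273 by edgeR), while the arterial-like level was higher in every library. In T-like cells Sele had the other direction (log2 fold change -1.43, adjusted p = 0.306). Other classes outside the endothelium also held Sele. Of all its UMIs in kept cells, 2.22% were in 1187 adventitial fibroblast-like, 1.39% in 300 mesothelial-like and 1.16% in 299 smooth muscle-like cells. Neutrophil-like cells held 3.12%. The part of free RNA in these shares was not tested.

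**Figure D3:**
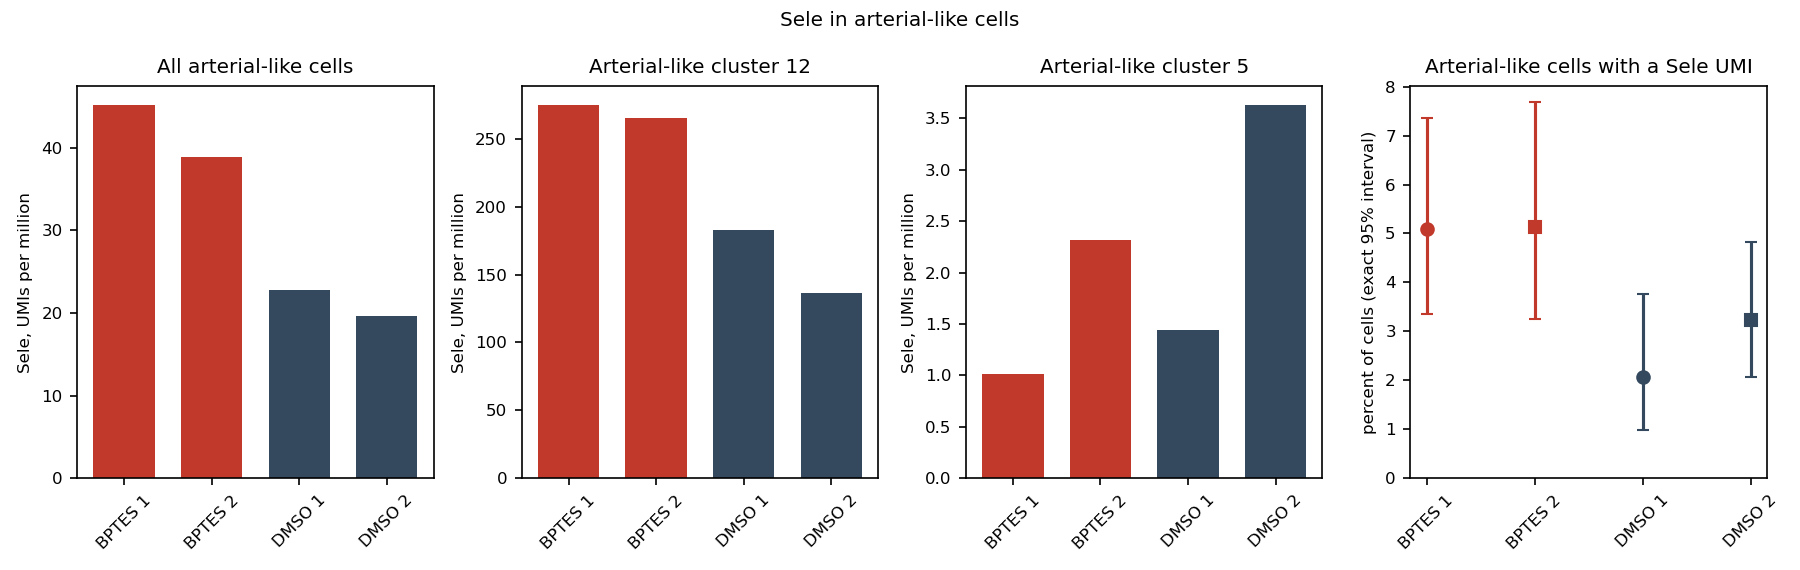
Sele in arterial-like cells: bars give CPM in each library for all arterial-like cells, cluster 12 and cluster 5 (each with its own axis), and points give the percentage of arterial-like cells with a Sele UMI with exact 95% intervals that cover counting error only. Both BPTES libraries are above both DMSO libraries in the class and in cluster 12, and overlap with them in cluster 5.

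In veins the Sele levels of the groups overlapped. Venous-like levels were 36.8 and 70.9 CPM in BPTES and 30.9 and 44.5 CPM in DMSO, and the shares of cells with a UMI averaged 3.45% in both groups. The log2 fold change was 0.55 ± 0.288 (adjusted p = 0.476 by edgeR). Sele was called there without a filter on low counts (0.55), with the replicate block (0.53, adjusted p = 6.13e-04 by edgeR) and without BPTES replicate 1 (0.97, adjusted p = 0.0363 by edgeR), whereas without BPTES replicate 2 the log2 fold change was -0.04. In general capillary-like cells Sele was at 6.90 and 9.23 CPM in BPTES and 0.827 and 4.79 CPM in DMSO (log2 fold change 1.52 ± 0.587, adjusted p = 0.211), with no overlap. It was 0.82 without DMSO replicate 1 and 3.37 without DMSO replicate 2, neither of them called, and Sele was called without a filter on low counts (1.51) and with the replicate block (1.78, adjusted p = 0.00916 by edgeR). There, 1 cluster (cluster 3, led by Noct, Inhbb and Col18a1) held 88.4% and 91.2% of the Sele UMIs in BPTES and 89.7% and 54.8% in DMSO, and it had 619 and 1006 cells in BPTES against 155 and 481 in DMSO. Cluster 3 made up 26.5% of general capillary-like cells on average in BPTES and 8.69% in DMSO (exact permutation p = 0.3333). It held 282 and 351 Sele UMIs in BPTES and 26 and 143 in DMSO, in 20 and 45 cells against 4 and 12. Within cluster 3 both BPTES libraries thus had more Sele UMIs per cell than both DMSO libraries, but the cluster was not fitted alone. Without that cluster the log2 fold change of Sele was -0.22, and it was also below 0 at clustering resolution 2 (-1.09) and with another clustering seed (-0.14). In aerocyte-like and lymphatic-like cells the libraries held between 0 and 6 Sele UMIs, and the filter on low counts removed the gene. Without that filter Sele was not called in either (adjusted p = 0.841 and 0.835 by edgeR), nor in the tests of a difference from arterial-like cells (adjusted p = 0.835 and 0.987 by edgeR); a count of 0 allows up to 0.46 CPM in aerocyte-like cells of BPTES replicate 2.

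The Selp levels of the groups overlapped in arteries and veins. Arterial-like levels were 42.5 and 24.4 CPM in BPTES and 84.1 and 20.5 CPM in DMSO, and DMSO replicate 1 set the direction: the log2 fold change was -0.54 ± 0.501 with all libraries, 0.76 without DMSO replicate 1 (adjusted p = 0.0116, called) and -1.28 without DMSO replicate 2 (adjusted p = 5.19e-13, called). Venous-like levels were 578 and 873 CPM in BPTES and 679 and 531 CPM in DMSO (log2 fold change 0.31), with calls without a filter on low counts and without BPTES replicate 1 (0.61, adjusted p = 0.0458 by edgeR). In lymphatic-like cells Selp was lower in both BPTES libraries, at 15.6 and 18.1 CPM against 28.3 and 30.7 CPM (log2 fold change -0.81 ± 0.188, adjusted p = 0.0937 by edgeR; called without a filter on low counts and without BPTES replicate 2), where 51 of 11725 genes were called (0.435%). In general capillary-like cells Selp was at 5.88 and 14.7 CPM against 5.68 and 5.01 CPM, a log2 fold change of 1.04 that became -0.42 without cluster 3. It was 0.18 without BPTES replicate 2 and 1.59 without BPTES replicate 1 (adjusted p = 0.00101 by edgeR, called).

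In the edgeR fit of all libraries, Vcam1 was not called in arteries or veins, and its fold changes there had opposite signs. In arterial-like cells it was at 127 and 108 CPM in BPTES and 61.5 and 81.7 CPM in DMSO (log2 fold change 0.75 ± 0.132, adjusted p = 0.0918 by edgeR). Both BPTES libraries were higher, in cluster 12 (699 and 632 against 424 and 567 CPM) and in cluster 5 (16.7 and 23.2 against 13.2 and 15.4 CPM). Over 16 alternatives its log2 fold change was between 0.46 and 0.98. It was called under DESeq2 (adjusted p = 0.00690), without a filter on low counts and with the replicate block. In these settings 0.746%, 3.11% and 4.86% of all genes were called. Leaving out 1 library, which leaves 1 in its group, gave log2 fold changes between 0.56 and 0.98. In venous-like cells Vcam1 was at 283 and 342 CPM in BPTES and 496 and 389 CPM in DMSO (log2 fold change -0.46 ± 0.141, adjusted p = 0.290), and both BPTES libraries were lower; it was called without a filter on low counts and with the replicate block (adjusted p = 3.55e-04 by edgeR). In that fit of all libraries none of the 10 genes was called in venous-like cells, where 0% of 12827 genes were called and 12.2% had an unadjusted p under 0.05. The difference between the classes was tested as an interaction with each library as a block: the venous-like effect was lower than the arterial-like one by a log2 difference of -1.23 ± 0.235, with an edgeR adjusted p of 0.0840, which did not pass the threshold, and 0.0429% of 13994 genes were called in this contrast.

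Neither Icam1 nor Icam2 was called in any endothelial class by edgeR with all libraries. Icam1 was lower in both BPTES libraries than in both DMSO libraries in each of the 5 classes, with log2 fold changes between -0.29 and -0.13 and no call. Over all genes, 28.8%, 37.6%, 22.6%, 27.7% and 22.6% had this order in arterial-like, general capillary-like, aerocyte-like, venous-like and lymphatic-like cells. Fitted alone, the small clusters 12 and 14 had Icam1 log2 fold changes above 0 (0.23 ± 0.217 and 0.45 ± 0.221), without a call. Those of the large clusters 5 and 2 were -0.32 and -0.23. In aerocyte-like cells, its highest endothelial class, it was at 505 and 602 CPM against 641 and 670.3 CPM (log2 fold change -0.23 ± 0.0902, adjusted p = 0.466 by edgeR), where 0.0351% of 11410 genes were called; with the replicate block, where 3.69% were called, Icam1 was among them (adjusted p = 0.00789 by edgeR). In venous-like cells it was at 370.5 and 429 CPM against 468 and 432 CPM. Icam2 in aerocyte-like cells was at 1582, 1573, 1595 and 1611 CPM in BPTES replicates 1 and 2 and DMSO replicates 1 and 2, a log2 fold change of -0.01 ± 0.0659. The classes share their libraries, so the 5 Icam1 values are not independent.

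Vwf had lower values with BPTES in general capillary-like cells, without a call. It was at 172 and 158 CPM in BPTES and 353 and 277 CPM in DMSO, and the groups were well apart. The log2 fold change was -0.85 ± 0.115 (0.553-fold), with an adjusted p of 0.123 by edgeR's quasi-likelihood test, in a class where 0% of 15675 genes were called and 21% had an unadjusted p under 0.05. Vwf was called under DESeq2 (adjusted p = 2.30e-08, with 4.94% of genes called), without a filter on low counts, with the replicate block (adjusted p = 4.83e-04, with 12.4% of genes called) and without BPTES replicate 1. Without DMSO replicate 1 the log2 fold change was -0.68 (adjusted p = 0.690). Both BPTES libraries were below both DMSO libraries in 6 of the 6 general capillary-like clusters, for example at 257 and 248 against 407 and 363 CPM in cluster 4 and at 99.2 and 112 against 226 and 128 CPM in cluster 3. The clusters share their libraries, so these values are not independent. In the class as a whole 37.6% of all genes had this order, and Icam1 had it in 5 of the 6 clusters. The share of all genes was not counted by cluster. Without cluster 3 the log2 fold change of Vwf was -0.75 (adjusted p = 0.0845 by edgeR).

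The share of general capillary-like cells with a Vwf UMI was 56.4% and 54.5% in BPTES and 73.4% and 68.3% in DMSO, and 29.0% against 45.1% on average after thinning (exact permutation p = 0.3333, adjusted p = 0.556 over 50 tests). No cell stood out: the 2 richest cells of a library held between 0.616% and 1.24% of its Vwf UMIs. T-like cells, which should lack Vwf, had a Vwf UMI in 3.01% and 4.23% of cells in BPTES and 4.59% and 5.67% in DMSO, at median depths between 15679 and 16077 UMIs. Their level was between 2.12 and 8.93 CPM and also lower in BPTES (log2 fold change -1.39, adjusted p = 0.291), and the part of free RNA in the capillary difference was not tested. In vessels with high Vwf the groups overlapped: venous-like levels were 2330 and 2188 CPM in BPTES and 2655 and 2273 CPM in DMSO (log2 fold change -0.09 ± 0.104), and arterial-like levels 889 and 1048 CPM against 1111 and 911 CPM (-0.02 ± 0.141). The interaction of treatment with class, general capillary-like against arterial-like, gave -0.86 ± 0.162 (adjusted p = 0.127, with 0% of genes called). In lymphatic-like cells Vwf was at 1.58 and 2.26 CPM against 5.56 and 5.08 CPM, from 8 to 23 UMIs per library, a level near that of T-like cells.

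**Figure D4:**
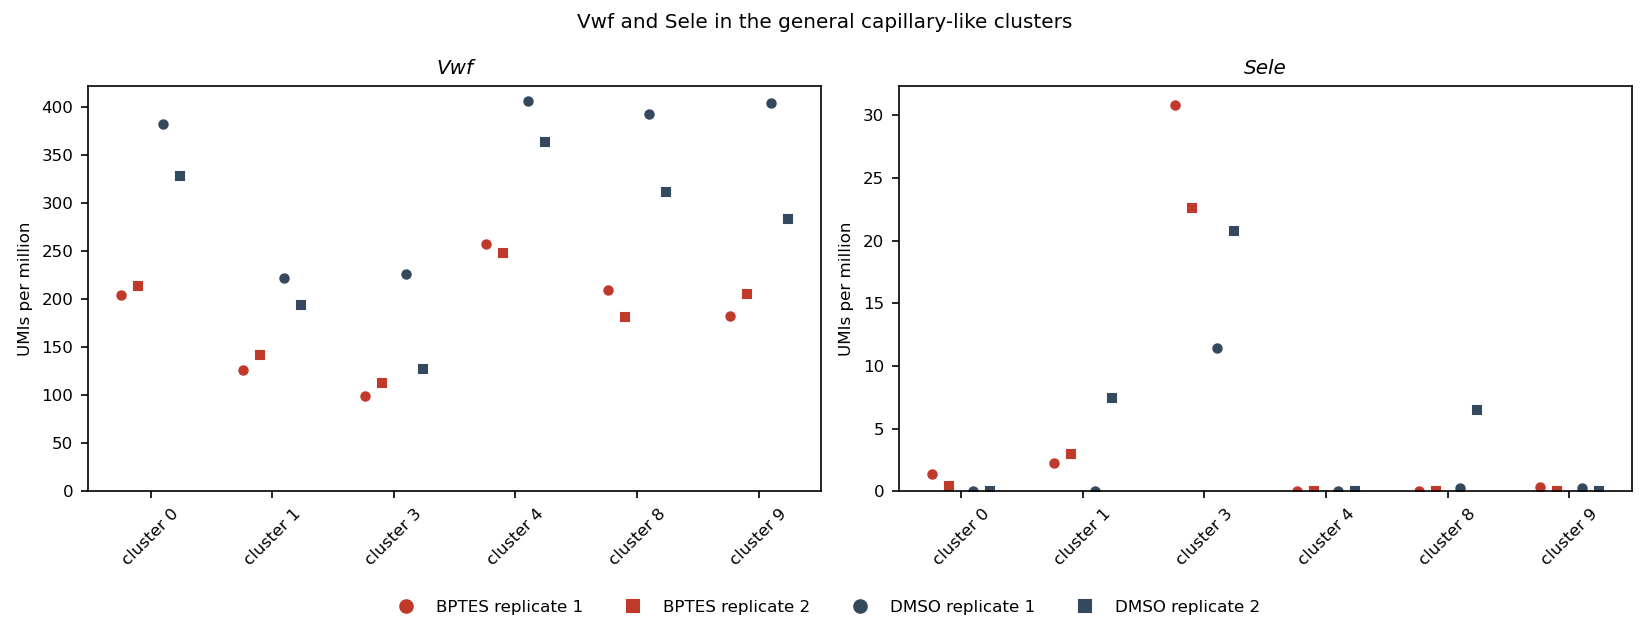
Vwf and Sele in the 6 general capillary-like clusters, in CPM, with 1 point per library. Both BPTES libraries are below both DMSO libraries for Vwf in every cluster shown, whereas Sele is highest in cluster 3. The clusters share their libraries and are not independent.

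Thbd, Tfpi and Plat were not called in any endothelial class by edgeR with all libraries. Thbd in arterial-like cells was at 547 and 560.3 CPM in BPTES and 670.4 and 604 CPM in DMSO, a log2 fold change of -0.16 ± 0.108 (adjusted p = 0.532 by edgeR). In the other 4 classes its log2 fold change was between -0.15 and 0.07. Tfpi in arterial-like cells was at 30.2 and 28.8 CPM against 39.96 and 37.0 CPM (-0.34 ± 0.116, adjusted p = 0.246), with no overlap. Plat in arterial-like cells was at 339 and 327 CPM in BPTES and 271 and 276 CPM in DMSO (0.33 ± 0.0943, adjusted p = 0.177), and it was called without BPTES replicate 1 (adjusted p = 0.0356 by edgeR). In venous-like cells, where it is scarce, Plat was at 19.3 and 17.3 CPM against 30.2 and 26.5 CPM (-0.59 ± 0.133, adjusted p = 0.210), with calls without a filter on low counts and with the replicate block (adjusted p = 0.00476 by edgeR). In cluster 14 it was at 8.01 and 2.98 CPM against 34.3 and 22.5 CPM, from 9 and 2 UMIs against 34 and 19. When the cluster was fitted alone, the log2 fold change was -2.19 ± 0.505, without a call (adjusted p = 0.300 by edgeR). Without BPTES replicate 1 the log2 fold change of Plat was 0.38 in general capillary-like and -1.65 in lymphatic-like cells, against 0.18 and -0.36 with all libraries. In lymphatic-like cells 1 cell held 58 of the 96 Plat UMIs of BPTES replicate 1. BPTES replicate 2 and DMSO replicates 1 and 2 held 18, 80 and 50. The interaction for Plat, venous-like against arterial-like, was -0.91 ± 0.303 with an adjusted p of 0.528.

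Procr was too scarce in most classes for a firm comparison. In lymphatic-like cells, its main endothelial class, it was at 22.9 and 26.9 CPM in BPTES and 24.9 and 25.9 CPM in DMSO (log2 fold change -0.03 ± 0.180). Arterial-like values came from 9 to 33 UMIs per library. Its higher level in general capillary-like cells with BPTES (1.49 and 1.58 against 1.20 and 0.752 CPM, log2 fold change 0.76) became a log2 fold change of -0.24 without cluster 3.

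Of the 46 pairs of gene and endothelial class that could be tested, 0 were called by edgeR and 15 had an unadjusted p under 0.05; DESeq2 called 3 (Sele and Vcam1 in arterial-like cells and Vwf in general capillary-like cells), beside 0.746%, 4.94%, 0.298%, 0.584% and 0.433% of all genes in arterial-like, general capillary-like, aerocyte-like, venous-like and lymphatic-like cells. With the replicate block 8 pairs were called, beside 4.86%, 12.4%, 3.69%, 5.01% and 0.913% of genes in the same order, and without a filter on low counts 12, beside 3.11%, 8.25%, 1.52%, 2.7% and 2.07%. The 12 include Selp in aerocyte-like cells, which is outside the 46 pairs because the filter removes it. Among these 12, the calls not yet named were those of Selp in arterial-like, general capillary-like and aerocyte-like cells. In aerocyte-like cells 1 cell held 19 of the 20 Selp UMIs of DMSO replicate 1. BPTES replicates 1 and 2 and DMSO replicate 2 held 3, 1 and 4. Without BPTES replicate 1 the log2 fold change of Vcam1 in general capillary-like cells was 0.63. By class, 4 of 10 genes had an unadjusted p under 0.05 in arterial-like cells (14.4% of all genes), 5 of 10 in general capillary-like (21%), 1 of 7 in aerocyte-like (9.38%), 2 of 10 in venous-like (12.2%) and 3 of 9 in lymphatic-like cells (12%). In arterial-like cells both BPTES libraries were above both DMSO libraries for 3 of 10 genes (Sele, Vcam1 and Plat), beside 18.2% of all genes, and below them for 4, beside 28.8%; 47.1% of all genes did not overlap. In general capillary-like cells 3 were above (18.3%) and 5 below (37.6%), 8 of 10 in all (55.9%). In aerocyte-like cells 1 of 7 was above (17.4%) and 3 were below (22.6%), 4 in all (40%). In venous-like cells 0 of 10 were above (17.3%) and 5 below (27.7%; either way 44.9%), and in lymphatic-like cells 0 of 9 were above (20.3%) and 3 below (22.6%; either way 42.9%). The counts of pairs whose groups did not overlap are thus read against shares that are themselves high. The median log2 fold change of the genes tested was -0.08, 0.08, -0.10, -0.06 and -0.29 in these classes in that order, beside medians over all genes between -0.01 and 0.00. In 15 named classes outside the endothelium, 114 pairs were tested and 0 were called, with a smallest adjusted p of 0.194 and 14 unadjusted p-values under 0.05, beside 0.13% and 11.2% of all gene and class pairs there. In the tests of a difference from arterial-like cells 0 of the 10 genes were called, beside 0%, 0.0143%, 0.0429% and 0.222% of all genes for general capillary-like, aerocyte-like, venous-like and lymphatic-like cells.

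**Figure D5:**
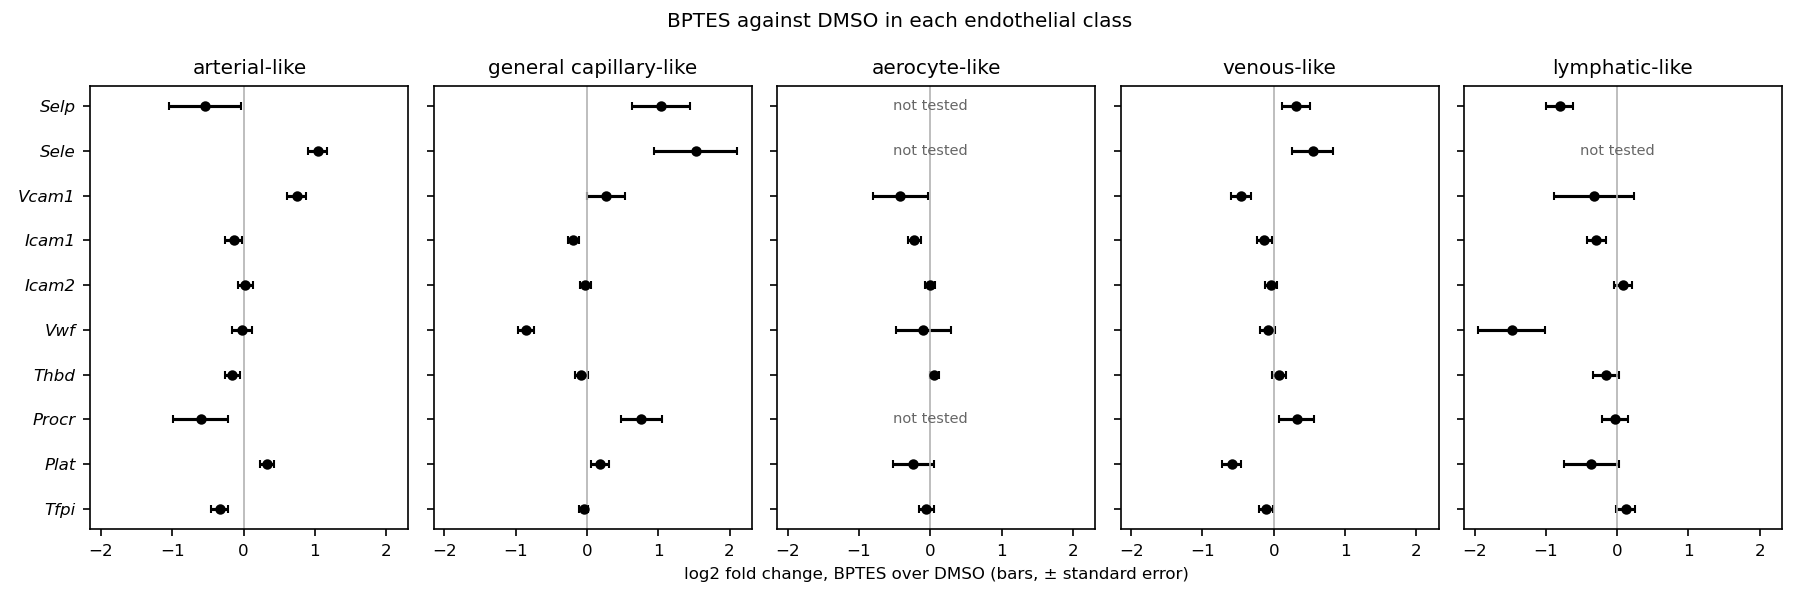
Log2 fold change of BPTES over DMSO for each gene and endothelial class, with bars of 1 standard error from edgeR's quasi-likelihood fit (2 libraries per group). Sele and Vcam1 are above 0 in arterial-like cells, Vwf is below 0 in general capillary-like cells, and no value passed an adjusted p of 0.05.

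The genes around these 10 were read from 5 lists with 109 entries in all, which do not include the 10 genes themselves. Values are given for arterial-like, general capillary-like, aerocyte-like, venous-like and lymphatic-like cells in that order. Over all genes tested, 0%, 0%, 0.0351%, 0% and 0.435% were called, 14.4%, 21%, 9.38%, 12.2% and 12% had an unadjusted p under 0.05, and the medians lay between -0.01 and 0.00. Of 22 genes of leukocyte adhesion and transmigration, 18, 18, 18, 19 and 17 were tested and 0 were called; 5, 5, 2, 4 and 3 had such an unadjusted p, and the median log2 fold changes were 0.11, 0.16, 0.00, 0.09 and -0.07. Of 12 genes for leukocyte ligands of the adhesion molecules, 7, 12, 5, 8 and 5 were tested and 0 were called; 0, 1, 0, 2 and 1 had such a p, with medians of 0.07, 0.10, 0.08, 0.06 and -0.43.

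Of 24 genes of NF-kB activation and its endothelial targets, 22, 23, 17, 22 and 22 were tested in these classes, and 1 was called. Irf1, an interferon and NF-kB regulated transcription factor, fell in lymphatic-like cells, from 331 and 336 CPM in DMSO to 224 and 216 CPM in BPTES (log2 fold change -0.59 ± 0.0952, adjusted p = 0.0180 by edgeR). In this list 2, 5, 5, 6 and 6 genes had an unadjusted p under 0.05, and the medians were 0.06, 0.01, -0.14, -0.19 and -0.24. Of 36 genes of coagulation, anticoagulation and fibrinolysis, 24, 30, 22, 25 and 24 were tested and 0 were called; 10, 11, 3, 4 and 6 had such a p, with medians of -0.06, 0.03, 0.08, -0.03 and -0.05. Of 15 genes of Weibel-Palade cargo and release, 14, 15, 13, 15 and 13 were tested and 0 were called; 0, 3, 1, 1 and 1 had such a p, with medians of 0.08, 0.15, -0.01, 0.06 and 0.00.

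Genes with the most similar pattern over the 20 sums of class and library were sought among 8991 genes (8992 for Procr) with a mean of at least 10 CPM, by Pearson correlation of log2(CPM + 1); the sums share libraries and classes, so these are descriptions. Sele was most like Gm6213 (r = 0.960), Plac8 (0.958) and Vcam1 (0.954), and Vcam1 was most like Gm6213 (0.984), Ano2 (0.970) and Cthrc1 (0.969). Selp was most like Itgb4 (0.959), Bgn (0.958) and Pla2g4a (0.943), and Vwf most like Samd5 (0.987), Bmp4 (0.982) and Ptprr (0.980). Icam1 was most like Scarb2 (0.980) and Icam2 most like Tspan13 (0.998). Thbd was most like Ripply3 (0.992), Procr most like Esr1 (0.986), Plat most like Lpcat3 (0.975) and Tfpi most like Slfn3 (0.906).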

How the data were processed

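Single-cell RNA libraries of lung (10x Genomics GEM-X 3' v4, per the labels' protocols) were deposited by the authors as filtered matrices of UMI counts per gene and cell, 2 libraries per group. The counts come from Cell Ranger 8.0.1 and mm10, per the file headers and the submitters' processing notes; counting settings are not given in the sources used here. Libraries held 260346570 to 342107092 UMIs. From these counts, barcodes were retained if they showed 500 or more genes, 1000 or more UMIs and no more than 10% mitochondrial UMIs; Scrublet's highest-scoring barcodes, 0.4% per 1000 barcodes, were then taken out. Cells were clustered with scanpy 1.11.5 (2000 variable genes without the 10 genes, 40 components, 15 neighbours, Leiden resolution 1), endothelial cells a second time, and clusters were named from listed markers with thresholds set after seeing the clusters. UMIs were summed per class and library and fitted with edgeR 4.0.16 (quasi-likelihood, TMM, filterByExpr, R 4.3.3), with Benjamini-Hochberg adjustment over all genes of a class and a call at adjusted p under 0.05. The standard error is the log2 fold change divided by the root of the F statistic, an approximation. DESeq2 1.42.0, other size factors, filters, partitions, a replicate block and leaving out each library were alternatives. Shares of cells were also computed after thinning each cell to 3000 UMIs. Intervals (95%, exact binomial) and floors (3 UMIs) cover counting error only. The scripts were tested on simulated data. The 10 genes and the lists were chosen with earlier results of these data known. Genes named are these 10, genes of the 5 lists called in an endothelial class, and the 3 most similar genes; other genes and cluster leaders were named after their values were seen. Replicate numbers come from titles alone and were not taken as pairs.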

Additional observations from a re-analysis of the deposited data

How the results depend on the processing

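Of 777 alternative values for single genes, Sele in arterial-like cells apart, 677 kept their direction and side of the threshold, 33 became calls, 17 moved and 50 changed sign. These 50 are fitted log2 fold changes. Thinning also changed the sign of the difference in share of cells for some pairs, while others kept it. An example is Icam2 in general capillary-like cells (0.575 to -1.97 percentage points). Genes called in arterial-like cells went from 0 to 67 (DESeq2), 621 (no filter on low counts), 584 (replicate block), 5 (resolution 0.5), 3 (resolution 2) and 127 to 870 (leaving out 1 library). In general capillary-like cells they went from 0 to 609, 1928 and 1937 (DESeq2, no filter, replicate block), 4 (resolution 2) and 0 to 1792 (leaving out 1 library). In aerocyte-like cells they went from 4 to 32, 287 and 421, 15 with more doublets removed, and 1 to 294. In venous-like cells they went from 0 to 56, 560 and 642, and 1 to 182, and in lymphatic-like cells from 51 to 405 (no filter), 107 (replicate block) and 56 to 357. Pairs of the 10 genes and classes called went from 0 to 3, 12 and 8 (DESeq2, no filter, replicate block), 1 (resolution 0.5) and 3 to 10 (leaving out 1 library). The cause was not tested. Leaving out a library leaves 1 in its group, which is then assumed to vary like the other group.

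Sele in arterial-like cells was called at 1.04 (DESeq2), 1.05 (no filter), 1.03 (replicate block) and 1.02 (resolution 0.5). Leaving out 1 library gave 0.93 to 1.14 for Sele. The difference in its share of cells went from 2.46 to 1.80 percentage points after thinning. Same-numbered libraries correlated at 0.0307 (arterial-like), 0.180 (general capillary-like), 0.0681 (aerocyte-like), -0.00405 (venous-like) and 0.00216 (lymphatic-like) in their deviations; with 2 pairs and no label on what a number marks, whether the numbers pair the libraries was not settled.

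Leaving out 1 library changed signs in arterial-like cells for Selp (-1.28 to 0.76), Icam1 (-0.30 to 0.0145), Icam2 (-0.0142 to 0.0709) and Vwf (-0.18 to 0.13), and in general capillary-like cells for Vcam1 (-0.20 to 0.63) and Plat (-0.0333 to 0.38). It did so in aerocyte-like cells for Icam2 (-0.0180 to 0.0110), Vwf (-0.995 to 0.44), Plat (-0.78 to 0.17) and Tfpi (-0.12 to 0.02), and in venous-like cells for Selp (-0.0525 to 0.61), Sele (-0.0419 to 0.97), Icam1 (-0.27 to 0.00906), Icam2 (-0.0757 to 0.00256) and Vwf (-0.18 to 0.0226). In lymphatic-like cells it did so for Vcam1 (-0.83 to 0.40), Icam2 (-0.12 to 0.28), Thbd (-0.53 to 0.18), Procr (-0.15 to 0.11) and Plat (-1.65 to 0.20). Other settings changed signs for Icam1 (0.0086) and Icam2 (-0.0162) in arterial-like cells at resolution 0.5 and for Icam2 (-0.0274) at resolution 2. In general capillary-like cells they did so at resolution 2 for Selp (-0.55), Sele (-1.09), Vcam1 (-0.19) and Procr (-0.17), with seed 1 for Selp (-0.33), Sele (-0.14), Vcam1 (-0.23), Icam2 (0.0068) and Thbd (0.0011), and with seed 2 for Vcam1 (-0.36). Without cluster 3, an alternative chosen after seeing the data, they did so for Selp (-0.42), Sele (-0.22), Vcam1 (-0.20), Icam2 (0.0034), Thbd (0.018) and Procr (-0.24). In aerocyte-like cells Icam2 (0.0039, no filter) and Vcam1 (0.19, without the 2 richest cells) changed sign.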
